A study of Mus musculus with 6 samples.

Results

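The splicing factor genes described here were the rows of the deposited gene table whose symbols begin with Hnrnp, Snrp, U2af, Rbfox, Mbnl, Celf, Esrp or Ptbp, or with Srsf, Sf3a, Sf3b or Prpf followed by a digit. This rule, which uses names and no measured value, took 78 of 11754 gene rows and, by the same gene names, 205 of 22148 transcripts. The 78 rows carried 77 symbols, because U2af1l4 was listed under 2 gene identifiers. They comprised 20 hnRNP genes, 10 SR genes, 9 SF3 genes, 4 U2af rows, 11 Sm and snRNP genes, 13 Prpf genes, 3 Ptbp genes, 3 Mbnl genes, 4 Celf genes and 1 Rbfox gene (Rbfox2). Genes of the Esrp name were not analysed here.

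Introns are removed by the spliceosome, which is built on each transcript from small nuclear ribonucleoproteins (snRNPs) and many further proteins. U2AF and the SF3 proteins define the 3′ end of the intron and the branch point, the Sm proteins form the ring around the spliceosomal RNAs, and Prpf proteins belong mostly to the tri-snRNP and to the complexes that activate it. SR and hnRNP proteins bind exons and introns and shift the choice between alternative splice sites, while the Ptbp, Mbnl, Celf and Rbfox proteins are regulators best known for programmes specific to tissues such as brain and muscle.

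The RNA was from 2H11 cells, an established mouse line labelled endothelial, with axillary lymph node and vascular epithelium of C3H/HeJ mice given as its source. All cells were starved. One group of 3 samples was left untreated and the other group of 3 received BMP4, a secreted bone morphogenetic protein, for 48 h; the sources used here give neither the dose nor the medium. Whether replicates were separate cultures is not in the labels, so the p-values speak of the spread among these 6 samples, which may be technical. Values are FPKM, fragments per kilobase of transcript scaled to the size of the library, for genes and for transcripts. The files give no read counts, so the depth behind a value is unknown and intervals come from the replicates alone. Of 12 endothelial markers, 4 had a value (Cd34, Flt1, Eng and Egfl7), and the other 8, Pecam1 and Cdh5 among them, were not analysed here; the 4 summed to 68.5 to 75.4 FPKM untreated and 43.4 to 43.9 FPKM with BMP4, with Cd34 lower and Flt1 higher. Of 4 lymphatic endothelial markers 2 had a value, and Pdpn fell. All 6 fibroblast markers had a value, with sums of 2673 to 2727 FPKM untreated and 1452 to 1462 FPKM with BMP4, and 2 rose and 4 fell. Of the 3 leukocyte markers with a value 0 passed (limma; 0 at an unadjusted p under 0.05), and the 4 epithelial markers were not analysed here. Of 20 proliferation genes, 4 rose and 1 fell (25% called, against 27.9% of all tested genes). They summed to 951 to 992 FPKM untreated and 1027 to 1033 FPKM with BMP4. The part of any of these in the splicing factor values was not tested, and in bulk RNA a change in the kind of cell and a change in RNA per cell cannot be told apart.

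Splicing factor RNA as a whole did not separate the groups. The 78 rows summed to 3354, 3276 and 3289 FPKM in the untreated samples and to 3211, 3114 and 3305 FPKM in the BMP4 samples. This was 1.23% to 1.28% of the FPKM of all listed genes in untreated samples and 1.23% to 1.27% in BMP4 samples, so the groups overlapped. Of the 78 rows, 76 averaged at least 1 FPKM across the samples and were tested. The 2 below it were Celf5, a member of the Celf family, at 0.502, 1.01 and 0.576 FPKM untreated and 0.677, 0.611 and 0.859 FPKM with BMP4, and the second U2af1l4 row, at 0.261 to 0.446 FPKM untreated and 0.267 to 0.813 FPKM with BMP4.

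Of the 76 tested splicing factor genes, 6 rose and 4 fell with BMP4 (limma on log2(FPKM + 1), Benjamini-Hochberg adjustment over all 10932 tested genes, adjusted p under 0.05). That was 13.2% of the members, where 27.9% of all tested genes were called, 13.6% higher and 14.3% lower. By direction, 7.89% of the members were higher and 5.26% lower. At an unadjusted p under 0.05 there were 19 members (25%) and 39.9% of all tested genes. The same comparison among genes with a mean of at least 5 FPKM called 10 of 72 members, or 13.9%, against 29.4%. The risers were Celf4, Ptbp2, Ptbp3, Prpf40b, Hnrnpll and Srsf4. The fallers were Prpf38a, U2af1, Prpf19 and Sf3b3. Groups did not overlap for 23 of 76 members (30.3%), against 45.5% of all tested genes.

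Changes were small as well as few. The median size of the log2 fold change was 0.09 over the members and 0.15 over all tested genes, with median standard errors of 0.06 and 0.07. On the log2(FPKM + 1) scale, which understates changes of low genes, only Celf4 differed by 0.5 or more, 1 of 76 members (1.32%), against 10.4% of all tested genes. By the log2 ratio of the group means Celf4 and Ptbp2 did, 2 of 76 (2.63%), against 14% of all tested genes. On the log2(FPKM + 1) scale without BMP4 replicate 2, Celf4 and Prpf38a did (2.63%, against 10.6%). Celf4 and Ptbp2 did without untreated replicate 3, without BMP4 replicate 3, and with 0.1 FPKM added in place of 1. For 68 members (89.5%) the 95% interval of the log2 fold change lay within 0.5 of no change on either side, against 73.7% of all tested genes. The members were also the more abundant genes, with a median of 27.7 FPKM against 9.19 FPKM. Signs were split, with 45 of 76 members below 0 (59.2%) against 50.2% of all tested genes, and the median log2 fold changes were -0.02 and 0.00. The excess below 0 was not there with samples rescaled to equal sums, where 32 members were below 0 (42.1%, against 43.7%) and the member median was 0.02, nor without BMP4 replicate 2, where 36 were (47.4%, against 49.1%).

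**Figure D1:**
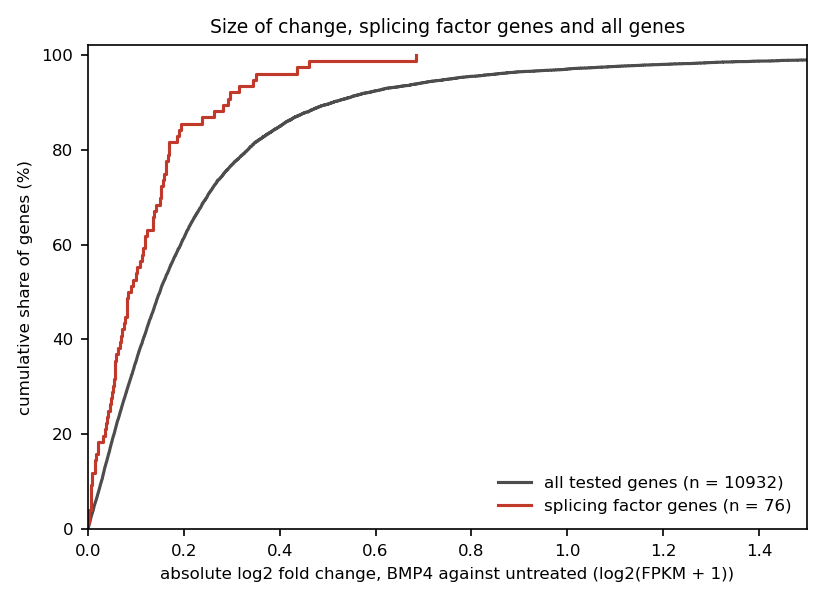
Cumulative share of genes (percent) by the absolute log2 fold change between BMP4 and untreated samples on the log2(FPKM + 1) scale, for the 76 tested splicing factor genes (red) and all 10932 tested genes (grey). The red line lies left of the grey line, with medians of 0.09 and 0.15, and its last step is Celf4.

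**Figure D2:**
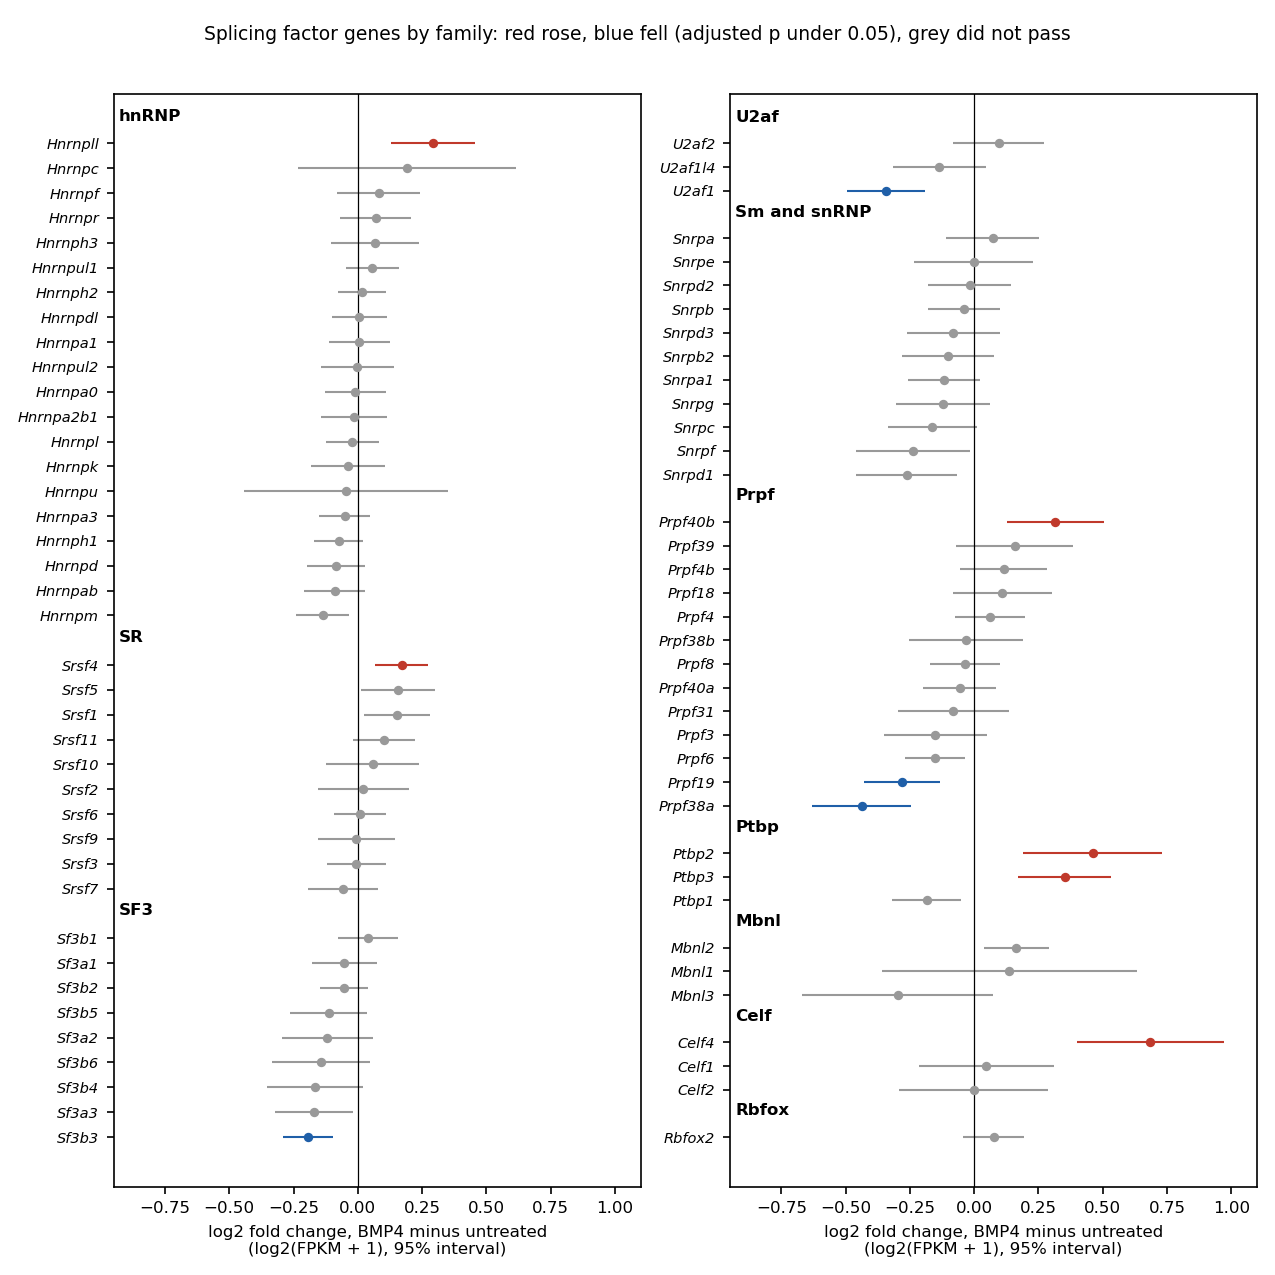
Log2 fold change (BMP4 minus untreated, log2(FPKM + 1)) with its 95% interval for each of the 76 tested splicing factor genes, by family. Red marks the 6 genes that rose and blue the 4 that fell at a limma adjusted p under 0.05; grey points did not pass.

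U2AF recognises the 3′ end of the intron, and U2af1 encodes its small subunit, which reads the AG dinucleotide there. U2af1, at chr17:31647082-31658754 on the minus strand (build GRCm38), read 171, 163 and 153 FPKM in untreated cells and 123, 123 and 137 FPKM with BMP4. Every BMP4 sample was below every untreated sample. The log2 fold change was -0.34 (SE 0.06, adjusted p = 0.00753), a fall from 162 ± 9.35 to 128 ± 7.97 FPKM (SD, n = 3), and the call held under all 13 alternative settings. It was the only U2af gene that passed. U2af2, the large subunit that binds the polypyrimidine tract, was at 31.9 ± 2.68 FPKM untreated and 34.1 ± 2.34 FPKM with BMP4 (log2 difference 0.09, adjusted p = 0.39). U2af1l4, a paralog of the small subunit, was at 5.14 ± 0.48 and 4.59 ± 0.213 FPKM (adjusted p = 0.237), and overlaps Gm49396 on the same strand, so its level is uncertain.

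U2af1 has a pair of mutually exclusive exons of 67 bases, and its 2 listed transcripts differ in which one they hold. In GENCODE M21 the transcripts also differ in total length, 1046 bases for U2af1-201 and 923 for U2af1-202. The exons are shown because the fall of U2af1 can be read separately on the transcript that holds each. Both are the exon 3 of their transcript, on the minus strand of GRCm38, that of U2af1-201 at chr17:31651646-31651712 and that of U2af1-202 at chr17:31652502-31652568, read 5′ to 3′ from GENCODE M21 transcripts, whose versions for this gene differ from the deposited ones. Capitals mark the 23 bases at which they differ; the other 44 of 67 (65.7%) are identical.
U2af1-201 exon: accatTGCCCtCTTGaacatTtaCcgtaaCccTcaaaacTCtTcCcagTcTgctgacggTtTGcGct
U2af1-202 exon: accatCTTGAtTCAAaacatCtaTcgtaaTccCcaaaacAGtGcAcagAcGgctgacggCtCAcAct

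At the transcript level U2af1-202 read 65.4, 60.4 and 59.7 FPKM untreated and 49.4, 51.6 and 49.6 FPKM with BMP4. Its log2 fold change was -0.29 (SE 0.05, adjusted p = 0.0238 over all 17213 tested transcripts). U2af1-201, the more abundant one, read 119, 115 and 104 FPKM untreated and 82.6, 80.9 and 97.5 FPKM with BMP4, with a log2 fold change of -0.37 (SE 0.09) and an adjusted p of 0.0714. Both transcripts were lower in every BMP4 sample, and their shares overlapped between the groups: the U2af1-201 exon made up 64.4%, 65.6% and 63.6% of the pair untreated and 62.6%, 61.0% and 66.3% with BMP4. The transcript call of U2af1-202 was lost without untreated replicate 2 (adjusted p = 0.0715) and without BMP4 replicates 1, 2 or 3 (0.0971, 0.0699 and 0.0798), and U2af1-201 passed without BMP4 replicate 3 (0.0376).

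The SF3a and SF3b proteins hold the U2 snRNP at the branch point. Among the 9 SF3 genes 1 fell and none rose. Of their log2 fold changes 8 of 9 were below 0, where 50.2% of all tested genes were (43.7% with equal sums). The count was 8 under all 13 alternatives too, which draw on the same 6 samples. The fall was in Sf3b3 (chr8:110810492-110846803, minus strand), a scaffold subunit of SF3b. It read 59.8, 63.0 and 62.1 FPKM untreated and 53.9, 53.5 and 53.9 FPKM with BMP4, so the groups stood apart with little spread. Its log2 fold change was -0.19 (SE 0.04, adjusted p = 0.0119); the adjusted p was 0.058 with every sample rescaled to the same sum of FPKM, 0.0532 without untreated replicate 2, and 0.0511 and 0.0534 without BMP4 replicates 1 and 2. Sf3b3 overlaps exons of Cog4 on the opposite strand, and the sources used here do not say whether counting used strand.

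The other SF3 members did not pass. Sf3b2, the most abundant, was at 101 ± 2.03 FPKM untreated and 97.4 ± 1.26 FPKM with BMP4 (log2 difference -0.05, adjusted p = 0.359). Sf3a3, a subunit of SF3a, was at 25.9 ± 1.67 and 22.9 ± 1.21 FPKM (-0.17, adjusted p = 0.0914), and Sf3b4 at 31.8 ± 2.85 and 28.1 ± 2.05 FPKM (-0.17, adjusted p = 0.165). Sf3b1, the branch point binding subunit often mutated in blood disorders, was the one member above 0, at 32.6 ± 1.3 and 33.5 ± 1.11 FPKM (0.04, adjusted p = 0.598). The 9 genes together summed to 359, 344 and 342 FPKM untreated and to 326, 319 and 326 FPKM with BMP4, and here too the groups did not overlap.

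Sm proteins and the proteins of the U1 and U2 snRNPs showed no call. Of the 11 genes 0 passed by limma, with 2 at an unadjusted p under 0.05. Even so, 10 of 11 had a log2 fold change below 0 (7 with equal sums), against 50.2% of all tested genes (43.7%). The family median was -0.10. Snrpd1, which encodes a protein of the Sm ring, came nearest. It read 115, 92.2 and 99.0 FPKM untreated and 88.6, 81.4 and 84.0 FPKM with BMP4 (log2 fold change -0.26, SE 0.08, adjusted p = 0.055). The groups did not overlap, but untreated replicate 1 lay well above the other two. Snrpd1 passed with trimmed-mean scaling (adjusted p = 0.0447) and without untreated replicate 2 (0.0349). Snrpf, another Sm protein, read 79.7, 78.03 and 73.9 FPKM untreated and 64.6, 57.2 and 75.1 FPKM with BMP4; its groups overlapped through BMP4 replicate 3 (-0.24, adjusted p = 0.105), and without that sample the adjusted p was 0.0173. Snrpc, of the U1 snRNP, was at 16.0 ± 1.54 and 14.1 ± 0.374 FPKM (-0.16, adjusted p = 0.149; 0.0288 without untreated replicate 3).

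Family sums for the Sm and snRNP genes were 506, 454 and 450 FPKM untreated and 421, 407 and 462 FPKM with BMP4, and these overlapped. The number of these genes below 0 was 7 with samples rescaled to equal sums of FPKM, and 8 without untreated replicate 1 or without BMP4 replicate 2. Untreated replicate 1 also had the highest sum over all listed genes, 273562 FPKM, where the other samples had 252329 to 264273 FPKM; the part of this in the Sm values was not tested.

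The Prpf proteins of the tri-snRNP and the activation steps included the largest fall among the members. Prpf38a, a protein that joins the spliceosome as it is activated, lies at chr4:108563172-108579336 on the minus strand and read 8.49, 8.13 and 8.47 FPKM untreated and 5.41, 6.73 and 5.68 FPKM with BMP4. All BMP4 samples were below all untreated samples. Its log2 fold change was -0.44 (SE 0.08, adjusted p = 0.00741), from 8.36 ± 0.203 to 5.94 ± 0.697 FPKM, and it passed under all 13 alternatives. The gene has 1 listed transcript, Prpf38a-001, which fell too (26.7 ± 0.411 to 18.4 ± 2.27 transcript FPKM, log2 fold change -0.52, SE 0.09, adjusted p = 0.0278). Gene and transcript FPKM are separate scales, and levels are not compared between them.

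Prpf19, the ubiquitin ligase at the core of the Prp19 complex (chr19:10895231-10909559, plus strand), read 25.4, 22.9 and 23.4 FPKM untreated and 18.7, 19.0 and 20.8 FPKM with BMP4. It fell by 0.28 on the log2 scale (SE 0.06, adjusted p = 0.0147), with no overlap between groups. Without BMP4 replicate 1 or 2 the adjusted p was 0.0607 or 0.0586. Prpf40b, the mammalian relative of a yeast U1 snRNP protein (chr15:99295087-99317018, plus strand), went the other way, at 5.86, 6.64 and 6.91 FPKM untreated and 7.85, 8.05 and 8.97 FPKM with BMP4. Its log2 fold change was 0.32 (SE 0.08, adjusted p = 0.0247). This call was lost without untreated replicate 1 or 2 (0.051 and 0.0564) and without BMP4 replicate 2 or 3 (0.0621 and 0.0727).

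Among the other 10 Prpf genes none passed. Prpf8, the large protein at the catalytic centre and the most abundant of the family, was at 65.1 ± 2.99 FPKM untreated and 63.5 ± 3.4 FPKM with BMP4 (log2 difference -0.03, 95% interval -0.17 to 0.10). Prpf6, which bridges the snRNPs within the tri-snRNP, was at 27.9 ± 0.247 and 25.03 ± 1.25 FPKM with groups that did not overlap (-0.15, adjusted p = 0.0616). Over the 13 genes, 5 log2 fold changes were above 0 and 8 below, and the family sum was 217 to 228 FPKM untreated and 210.3 to 216 FPKM with BMP4.

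**Figure D3:**
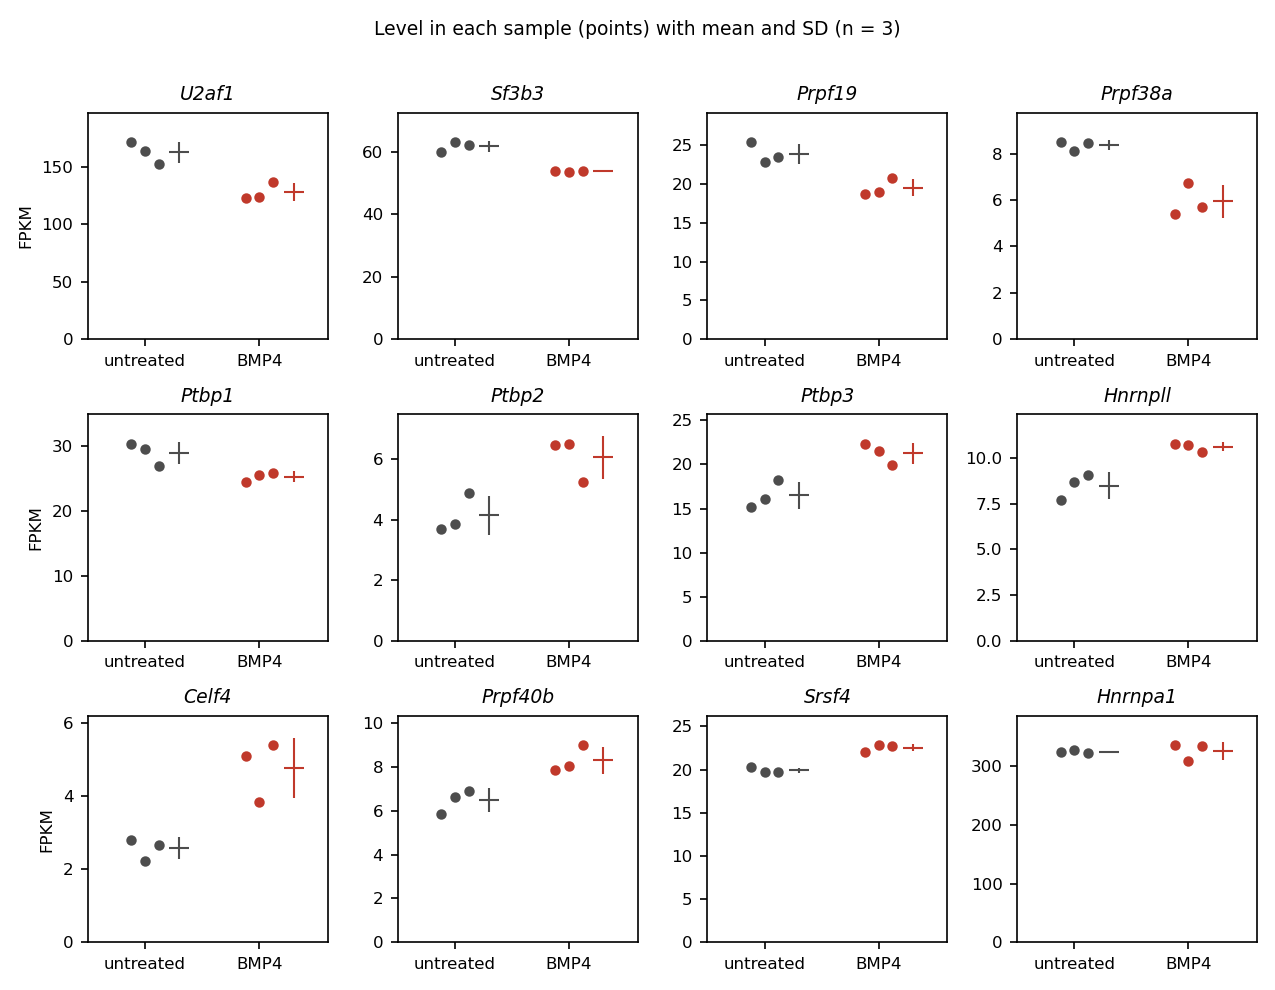
FPKM in each of the 3 untreated and 3 BMP4 samples (points) with mean and SD (cross) for 12 splicing factor genes, each on its own axis from 0. The 10 genes that passed have groups apart, Ptbp1 has groups apart with an adjusted p of 0.0509, and Hnrnpa1, the most abundant member, overlaps.

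SR proteins, named for their arginine and serine repeats, mostly promote exon inclusion. Of the 10 SR genes 1 rose and none fell. Srsf4 (chr4:131873617-131901706, plus strand) read 20.3, 19.8 and 19.7 FPKM untreated and 22.0, 22.8 and 22.8 FPKM with BMP4. The difference was small but larger than the spread in either group (log2 fold change 0.17, SE 0.04, adjusted p = 0.0261). It was also the least stable of the 10 calls: it was lost without untreated replicate 2 or 3 (0.0829 and 0.0626) and without BMP4 replicates 1, 2 or 3 (0.065, 0.0974 and 0.0752). Its exons overlap Gm12992 on the opposite strand.

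The prototype SR protein, Srsf1, read 18.7, 19.2 and 20.9 FPKM untreated and 21.9, 21.7 and 22.0 FPKM with BMP4 (0.15, adjusted p = 0.0798; 0.0336 without untreated replicate 3). Srsf5 was at 42.4 ± 1.96 and 47.4 ± 3.01 FPKM (0.16, adjusted p = 0.101; 0.0306 with samples rescaled to equal sums). Srsf2, the most abundant, was at 74.1 ± 4.26 and 75.3 ± 6.83 FPKM (0.02, adjusted p = 0.859). Of the 10 log2 fold changes, 7 were above 0; the count was 9 with equal sums or without BMP4 replicate 2, and 5 without BMP4 replicate 3.

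The hnRNP genes held the 2 most abundant members, and their median absolute log2 fold change was 0.05. Hnrnpa1, which binds splicing silencers in exons and introns, read 324, 327 and 323 FPKM untreated and 336, 309 and 334 FPKM with BMP4 (log2 difference 0.01, 95% interval -0.11 to 0.12). Hnrnpab followed at 285 ± 8.62 and 268 ± 10.6 FPKM (-0.09, adjusted p = 0.224). Hnrnpa1 and Hnrnpa3 have processed copies elsewhere in the genome, and the sources used here do not say how reads mapping to several places were handled, so their levels are uncertain. The 20 genes together summed to 1472 to 1483 FPKM untreated and 1411 to 1500.0 FPKM with BMP4.

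Of these 20 genes 1 rose. Hnrnpll (chr17:80029487-80062334, minus strand), a relative of Hnrnpl known for its control of Ptprc splicing in lymphocytes, read 7.68, 8.69 and 9.09 FPKM untreated and 10.8, 10.7 and 10.3 FPKM with BMP4. The log2 fold change was 0.29 (SE 0.07, adjusted p = 0.0201), and the adjusted p was 0.0725 or 0.0707 without BMP4 replicate 1 or 2. Hnrnpl itself was at 38.8 ± 0.785 and 38.2 ± 1.02 FPKM (-0.02, adjusted p = 0.75). Hnrnpm read 41.1, 39.2 and 41.2 FPKM untreated and 37.7, 36.4 and 36.2 FPKM with BMP4, without overlap and just short of the threshold (-0.14, SE 0.04, adjusted p = 0.0572); its exons overlap those of March2 on the same strand. Hnrnph1 was at 39.7 ± 0.334 and 37.7 ± 0.808 FPKM (-0.07, adjusted p = 0.216). Hnrnpc and Hnrnpu had the widest intervals, because single samples stood apart: Hnrnpc read 37.1 FPKM in untreated replicate 2 and 57.0 to 63.1 FPKM in the other 5 samples, and Hnrnpu 39.1 and 37.4 FPKM in untreated replicate 1 and BMP4 replicate 2 and 51.2 to 54.4 FPKM in the other 4.

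Of the 3 genes for polypyrimidine tract binding proteins 2 rose, Ptbp2 and Ptbp3. In most cell types Ptbp1 is the main form and holds Ptbp2, the neuronal form, low by making its transcript skip an exon. Ptbp2 (chr3:119718742-119784466, minus strand) read 3.68, 3.87 and 4.89 FPKM untreated and 6.45, 6.51 and 5.25 FPKM with BMP4, a log2 fold change of 0.46 (SE 0.11, adjusted p = 0.0231). Ptbp3 (chr4:59471868-59549364, minus strand) read 15.2, 16.1 and 18.2 FPKM untreated and 22.3, 21.5 and 20.0 FPKM with BMP4, a log2 fold change of 0.35 (SE 0.08, adjusted p = 0.0141). The BMP4 means were 1.46 and 1.29 times the untreated means.

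Ptbp1 (chr10:79854427-79864771, plus strand) read 30.3, 29.4 and 26.9 FPKM untreated and 24.4, 25.6 and 25.9 FPKM with BMP4. Every BMP4 sample was lower, but the adjusted p was 0.0509 (log2 fold change -0.19, SE 0.06); it was 0.0453 with trimmed-mean scaling, 0.049 among genes with a mean of at least 5 FPKM and 0.0238 without untreated replicate 3. The ratio of Ptbp2 to Ptbp1 was 0.122, 0.131 and 0.181 untreated and 0.265, 0.254 and 0.203 with BMP4, and the ratio of Ptbp3 to Ptbp1 was 0.50, 0.548 and 0.676 untreated and 0.917, 0.842 and 0.773 with BMP4. Neither ratio overlapped between groups. This had to follow, since every BMP4 sample was higher in Ptbp2 and Ptbp3 and lower in Ptbp1. Whether the levels of these genes are linked was not tested. The untreated sample with the highest ratios was replicate 3 and the BMP4 sample with the lowest was replicate 3. The calls were lost for Ptbp2 without untreated replicate 1 or 2 (0.0615 and 0.0741) and without BMP4 replicate 1 or 2 (0.0811 and 0.082), and for Ptbp3 without BMP4 replicate 1 or 2 (0.0568 and 0.0526). On the opposite strand, Ptbp1 exons overlap Plppr3 and Ptbp3 exons the pseudogene 1700018M17Rik.

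Ptbp3 held the alternative exon with the largest difference between groups among the members. Of its 2 tested transcripts, 1 holds an alternative coding exon of 34 bases. This is exon 2 of Ptbp3-009, at chr4:59546149-59546182 on the minus strand (GRCm38, sequence from GENCODE M21). The transcripts also differ in their ends and in coding length, 1569 bases for Ptbp3-001 and 1662 for Ptbp3-009. Their levels therefore do not follow this exon alone. The exon is shown in capitals, with 15 exonic bases on each side in lower case. It was chosen because the transcript that skips it rose and the one that holds it did not pass.
Ptbp3 34-base exon: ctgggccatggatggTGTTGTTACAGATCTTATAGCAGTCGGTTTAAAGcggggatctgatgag

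Ptbp3-001, which skips the exon, read 10.2, 10.4 and 12.6 FPKM untreated and 17.8, 17.8 and 15.4 FPKM with BMP4 (log2 fold change 0.57, SE 0.11, adjusted p = 0.0307). Ptbp3-009, which holds it, read 6.11, 6.74 and 7.02 FPKM untreated and 6.34, 5.45 and 6.22 FPKM with BMP4 (-0.12, adjusted p = 0.53). The exon was therefore in 37.4%, 39.3% and 35.8% of the pair untreated and in 26.3%, 23.5% and 28.8% with BMP4, a difference of -11.3 percentage points between groups that did not overlap. In the test of transcript shares over all genes the share of Ptbp3-001 had an unadjusted p of 0.0143 and an adjusted p of 0.663, so the difference did not pass. The rise of Ptbp3-001 had an adjusted p of 0.0856 and 0.106 without untreated replicates 1 and 2 and of 0.118, 0.115 and 0.0529 without BMP4 replicates 1, 2 and 3.

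In the remaining regulator families 1 gene rose. Celf4, a neuron-enriched Celf protein encoded on chromosome 18, read 2.81, 2.24 and 2.68 FPKM untreated and 5.09, 3.85 and 5.40 FPKM with BMP4. All BMP4 samples were above all untreated samples, and the log2 fold change of 0.69 (SE 0.12, adjusted p = 0.00582) was the largest among the members, from 2.58 ± 0.298 to 4.78 ± 0.818 FPKM. It passed under all 12 alternatives in which it was tested. Celf1, the abundant member, was at 17.7 ± 2.86 and 18.1 ± 0.713 FPKM (0.05, adjusted p = 0.78), and Celf2 at 3.60 ± 0.54 and 3.60 ± 0.571 FPKM (0.00, adjusted p = 0.993). The 2 listed Celf4 transcripts traded places between samples of 1 group: with BMP4, Celf4-201 read 3.87, 3.91 and 0 FPKM and Celf4-202 read 1.29, 0 and 5.40 FPKM. The rise of the gene therefore cannot be assigned to either transcript.

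Of the Mbnl genes, the muscleblind regulators, 0 of 3 passed by limma, with 1 at an unadjusted p under 0.05. Mbnl2, the most abundant at 40.1, 41.2 and 44.5 FPKM untreated and 48.7, 45.8 and 46.5 FPKM with BMP4, had groups apart and an adjusted p of 0.061 (log2 difference 0.16; 0.0322 without untreated replicate 3). Mbnl1 was at 6.66 ± 2.65 and 7.12 ± 0.198 FPKM (0.14, adjusted p = 0.662; 0.41 and 0.0113 without untreated replicate 3), and Mbnl3 at 4.07 ± 1.06 and 3.07 ± 0.294 FPKM (-0.30, adjusted p = 0.206; -0.48 and 0.00891 without untreated replicate 1). Rbfox2, which binds GCAUG motifs beside alternative exons, was at 49.7 ± 2.54 and 52.4 ± 1.01 FPKM (0.08, 95% interval -0.04 to 0.20, adjusted p = 0.301).

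Transcripts of the splicing factors were tested separately. Of 205 listed, 169 had a mean of at least 1 FPKM; 1 rose (Ptbp3-001) and 4 fell (Hnrnpk-009, U2af1-202, Prpf38a-001 and Sf3b3-201, the one listed transcript of Sf3b3). That was 2.96% of the members (0.592% higher, 2.37% lower) against 8.55% of all 17213 tested transcripts (4.03% higher, 4.53% lower). Hnrnpk-009, a minor coding transcript of the poly(C)-binding hnRNP K, read 1.56, 3.11 and 1.77 FPKM untreated and 0.0926, 0.248 and 0.143 FPKM with BMP4 (log2 fold change -1.41, SE 0.23, adjusted p = 0.0223). The gene as a whole stayed at 65.2 ± 3.15 and 63.5 ± 4.1 FPKM (adjusted p = 0.68), and its main transcript Hnrnpk-008 at 70.2 ± 2.75 and 70.7 ± 1.06 FPKM. Srsf5-004 (0.50, adjusted p = 0.0554) and Srsf1-003 (0.46, adjusted p = 0.07) did not pass.

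Each of the 5 transcript calls was lost when at least 1 sample was left out. For Hnrnpk-009 the adjusted p was 0.055 without untreated replicate 3 and 0.0816, 0.07 and 0.0719 without BMP4 replicates 1, 2 and 3. Prpf38a-001 had 0.0831, 0.0912 and 0.0846 without untreated replicates 1, 2 and 3, and 0.0738 and 0.0905 without BMP4 replicates 1 and 3. For Sf3b3-201 it was 0.117 and 0.0929 without untreated replicates 2 and 3, and 0.12, 0.121 and 0.0935 without BMP4 replicates 1, 2 and 3. Some transcript estimates jumped where the gene did not: Prpf19-001 read 59.2 FPKM in untreated replicate 2 and 13.7 to 18.3 FPKM in the other 5 samples, while the gene read 18.7 to 25.4 FPKM in all 6.

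**Figure D4:**
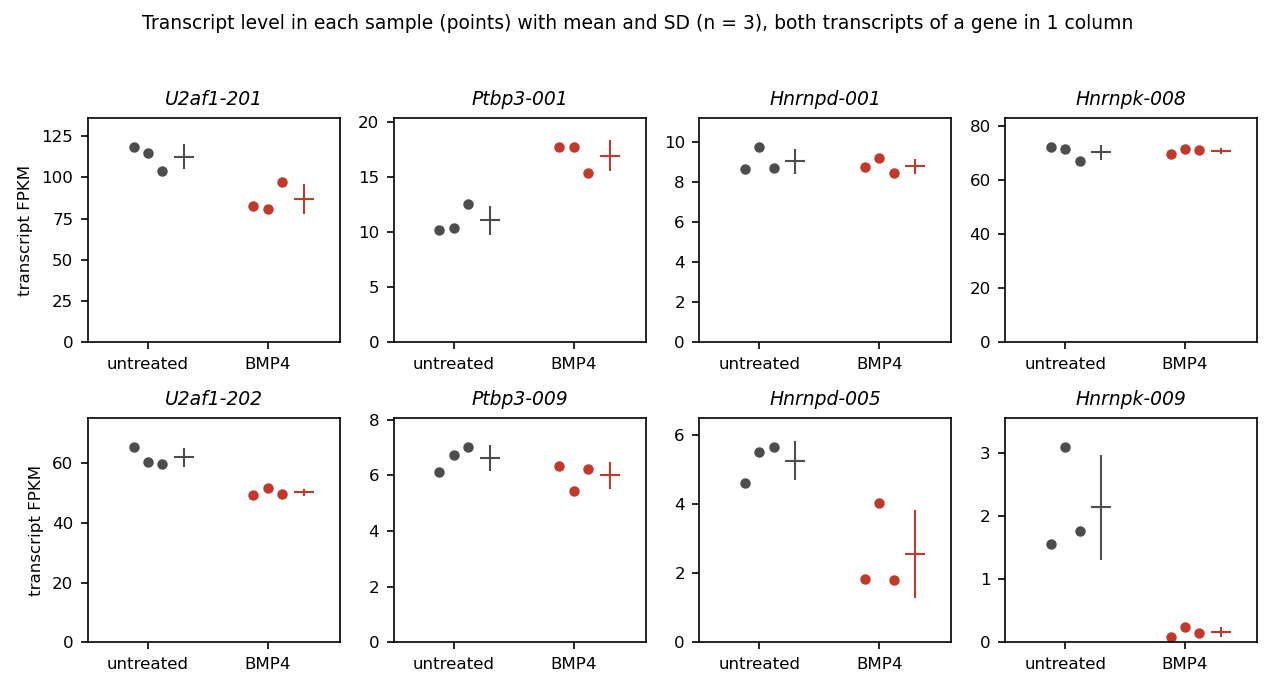
Transcript FPKM in each of the 3 untreated and 3 BMP4 samples (points) with mean and SD (cross) for a pair of transcripts of U2af1, Ptbp3, Hnrnpd and Hnrnpk, 1 gene per column. Both U2af1 transcripts are lower with BMP4, while in Ptbp3 the upper one is higher and the lower one overlaps.

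No splicing factor transcript passed the main test for its share of its gene. Among 136 transcripts of 43 member genes, 0 passed by limma, with 7 (5.15%) at an unadjusted p under 0.05, against 28 of all 10232 tested (0.274%) and 5.84%. limma's diffSplice, which pools the spread over the transcripts of a gene, called 2 of the 136 (1.47%, against 0.958% of all): Hnrnpk-009 down (adjusted p = 2.5e-05) and Hnrnpk-004 up (adjusted p = 0.0354). Hnrnpk-004 read 7.56, 4.89 and 4.25 FPKM untreated and 11.97, 8.13 and 10.5 FPKM with BMP4. Few transcripts pass this test in any gene, so a share that did not pass is not shown to be unchanged.

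From the exon structures, 28 alternative coding exons in 17 splicing factor genes could be followed as the FPKM of the transcripts that hold the exon, in percent of that of the transcripts that hold or skip it; these percentages are given as a description, without a test. Groups did not overlap for 6 of 28 (21.4%), against 13% of 2017 such exons in all genes. The shifts were small: the median absolute difference was 1.71 percentage points against 4.33, and 1 of 28 reached 10 points (3.57%, the Ptbp3 exon) against 25%. Several of the 28 lay near an end of the percentage scale and could hardly move. Some were not separate, as the 2 U2af1 exons mirror each other. The tested members were also more abundant, with a median of 27.7 FPKM against 9.19 FPKM. The part of these in the contrast was not tested. Hnrnpd, also known as AUF1, has 2 such exons that give its 4 protein forms, and both were in a higher percentage with BMP4. They are exon 2 at chr5:99976534-99976590 and exon 7 at chr5:99963731-99963877 of Hnrnpd-001, on the minus strand of GRCm38, shown as above with the exon in capitals because they carried the next largest differences after Ptbp3 and Mbnl1.
Hnrnpd 57-base exon: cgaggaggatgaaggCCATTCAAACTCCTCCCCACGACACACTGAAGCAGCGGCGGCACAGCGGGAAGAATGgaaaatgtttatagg
Hnrnpd 147-base exon: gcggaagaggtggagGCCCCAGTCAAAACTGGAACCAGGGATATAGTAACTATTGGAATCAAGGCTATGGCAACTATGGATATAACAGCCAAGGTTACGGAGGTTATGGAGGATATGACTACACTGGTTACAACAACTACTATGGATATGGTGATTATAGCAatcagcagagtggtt

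The 57-base exon of Hnrnpd was in 71.7%, 67.9% and 68.7% untreated and in 78.9%, 74.6% and 80.1% with BMP4. For the 147-base exon these were 52.9%, 56.4% and 48.1%, and 67.3%, 60.2% and 59.1%. Hnrnpd-005, the transcript that lacks both exons, read 4.61, 5.51 and 5.65 FPKM untreated and 1.83, 4.02 and 1.82 FPKM with BMP4 (adjusted p = 0.119). The percentages of the 57-base and 147-base exons are therefore not separate, since Hnrnpd-001 holds both exons and Hnrnpd-005 skips both. These transcripts also differ in length, 6811 bases for Hnrnpd-001 and 1537 for Hnrnpd-005. Their levels therefore do not follow the exons alone. The Hnrnpd gene level differed little and did not pass, 12.9 ± 0.319 and 12.1 ± 0.0803 FPKM (-0.08, adjusted p = 0.237). Every BMP4 sample was nevertheless below every untreated sample.

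An exon of 159 bases of Hnrnpa1 was in 17.7% ± 0.367 untreated and 19.4% ± 0.812 with BMP4, without overlap. An exon of 95 bases of Mbnl1 was in 24.2%, 25.6% and 11.04% untreated and in 28.5%, 29.5% and 32.7% with BMP4, and untreated replicate 3 was the lowest of the 6. The exon of 78 bases of Ptbp1, in the linker between its RNA-binding domains, was in 69.6% ± 9.21 and 73.0% ± 13.5, with wide overlap. Rbfox2 (40 bases) and Mbnl2 (36 bases) exons also overlapped between groups.

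**Figure D5:**
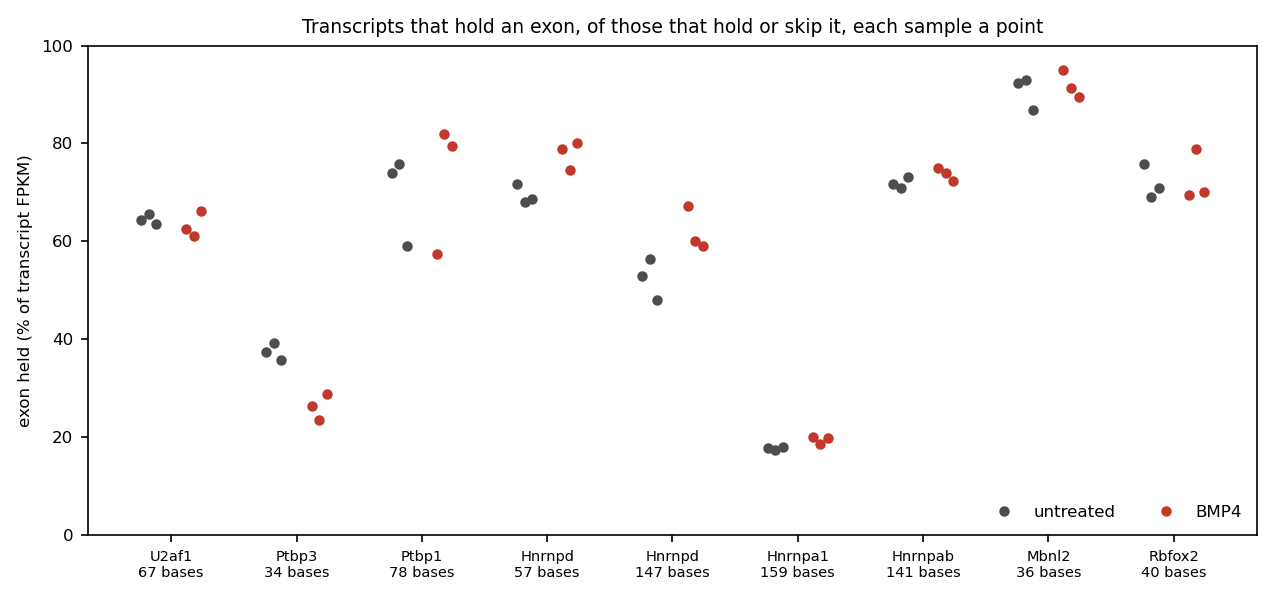
FPKM of the transcripts that hold an alternative exon, as a percentage of the FPKM of those that hold or skip it, each point 1 sample (grey untreated, red BMP4, 3 each), for 9 exons of 8 splicing factor genes. The Ptbp3 exon averages 37.5% untreated and 26.2% with BMP4, the Hnrnpd exons are higher with BMP4, and the U2af1, Ptbp1, Hnrnpab, Mbnl2 and Rbfox2 exons overlap.

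Other parts of the splicing machinery were read beside the members from lists of known genes. Of 158 tested genes on 7 such lists, 8 rose and 9 fell (10.8%, against 27.9% of all tested genes), with a median log2 fold change of -0.01. In the list of SR-related proteins and SR protein kinases, 3 of 22 rose and 0 fell; 13.6% of all tested genes were called higher. The 3 were Clk1, Clk2 and Clk3, of the CLK kinases, which phosphorylate SR proteins, while Clk4 did not pass, at 7.24 ± 0.796 and 7.79 ± 0.145 FPKM with overlapping groups (0.10, adjusted p = 0.403). Clk1 went from 8.77 ± 0.563 to 11.7 ± 0.131 FPKM (log2 fold change 0.38, SE 0.06, adjusted p = 0.00381), Clk3 from 17.2 ± 1.08 to 23.2 ± 1.47 FPKM (0.41, adjusted p = 0.00431) and Clk2 from 5.53 ± 0.248 to 7.01 ± 0.21 FPKM (0.30, adjusted p = 0.0107).

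Among 38 other splicing regulators 5 rose and 3 fell (21.1%, against 27.9% of all tested genes). Khdrbs3, a STAR-family RNA-binding protein, rose from 1.84 ± 0.232 to 3.41 ± 0.29 FPKM (0.63, adjusted p = 0.00199), and Raly, an hnRNP C relative, fell from 110 ± 24.9 to 60.1 ± 10.9 FPKM (-0.84, adjusted p = 0.0143). Rbm39, Msi2, Ddx17 and Rbms3 rose and Rbpms and Rbms2 fell, each by less than 0.5 on the log2 scale. Of 23 further proteins of the tri-snRNP and of the U1 and U2 snRNPs, Eftud2 and Nhp2l1 fell (-0.24 and -0.22). Of 24 Lsm and snRNP assembly genes, Lsm4, a subunit of the ring on U6 RNA, fell from 48.0 ± 1.84 to 36.5 ± 0.781 FPKM (-0.38, adjusted p = 0.000993), and Coil, the marker of Cajal bodies, fell by 0.26. Of 15 genes of the exon junction complex and nonsense-mediated decay, Upf1 fell by 0.30 (adjusted p = 0.0187) and Eif4a3 by 0.20 (adjusted p = 0.0201). The shares called were 8.7% (tri-snRNP, U1 and U2), 8.33% (Lsm and assembly) and 13.3% (exon junction complex and decay), each below the 27.9% of all tested genes. In the 25 genes of the Prp19 complex and catalytic steps and the 11 of the minor spliceosome 0 passed by limma, with 4 and 0 at an unadjusted p under 0.05.

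Of 28 genes known as targets of these splicing factors 7 rose and 3 fell in total level (35.7%, against 27.9% of all genes). Their transcript shares gave no call: 0 of 87 transcripts of 22 genes passed by limma and 0 by diffSplice. At an unadjusted p under 0.05 (limma) there were 10 of the 87, and 5.84% of all 10232 tested transcript shares. The smallest p was that of Tpm1-007, a transcript of the tropomyosin gene Tpm1, at 15.3, 17.8 and 19.0 FPKM untreated and 7.59, 6.20 and 6.02 FPKM with BMP4 (adjusted p = 0.444).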

How the data were processed

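Polyadenylated RNA of 6 samples was sequenced in paired ends from strand-specific libraries, per the labels' protocols. FastQC, cutadapt, HISAT2 and StringTie on GRCm38 are named, per the submitters' processing notes; the sources used here do not give versions, settings or annotation. The 2 deposited tables hold FPKM, of genes and of transcripts, per the file headers; 1 emptied line in each was skipped. The higher group mean of a listed gene was at least 0.502 FPKM, so genes low in both groups are outside the table, and the listed transcripts are those of protein-coding genes.

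From these, log2(FPKM + 1) was computed, and features with a mean of at least 1 FPKM were tested with limma 3.58.1 in R 4.3.3 (two-sided, variance trend, no covariate), with Benjamini-Hochberg adjustment over all of them and a threshold of 0.05. Adjusted p-values in the text are from limma. A transcript's share was tested as log2((transcript + 1) / (sum of the gene's other transcripts + 1)). Exon percentages came from GENCODE M21 (GRCm38) structures, which held 205 of 205 member transcripts, 185 at the same version. Members and lists were chosen with earlier results of these data known. Named were the called members and, in each family, the most abundant member and the 3 of smallest p. Members under the filter and the 8 member transcripts of smallest adjusted p were also named. From the other splicing lists the called genes were named, not all with values. Any other gene, transcript or exon was picked with its values in view.

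The tests were run on simulated data with known log2 changes of 0.25, 0.5, 1 and 2. Of the changed genes 16%, 64%, 94% and 100% were recovered. For transcripts these were 4%, 24%, 66% and 86%, and for shares 0%, 2.08%, 0% and 34%. In the gene simulation 50 of 10903 genes were changed at each size, all of them well above the filter. Genes outside these sets were left unchanged. Transcripts and shares were simulated likewise, with noise drawn separately for each transcript. In the real data 27.9% of genes were called, so the recovered percentages need not hold for the real tests. Small changes were often missed in the simulation. A feature that did not pass is thus not shown to be unchanged. Alternatives were the pseudocount (0.1), the filter (none, or 5 FPKM), trimmed-mean scaling, equal sums, no variance trend, a replicate block, diffSplice and leaving out each sample.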

Additional observations from a re-analysis of the deposited data

How the results depend on the processing

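Of the 10 gene calls, those of Celf4, Prpf38a and U2af1 held under every alternative run, and the other 7 were each lost in some. The replicate block called 2 higher genes in place of 6 and ended the calls of Sf3b3 (adjusted p = 0.0723), Ptbp3 (0.0549), Prpf19 (0.0538), Hnrnpll (0.0628), Ptbp2 (0.0718) and Srsf4 (0.112), while Snrpd1 passed (0.0496). The labels do not say whether same-numbered samples were paired. The correlations of their deviations from the group means were -0.15, 0.05 and -0.22. Those of differently numbered samples ran from -0.10 to 0.22. With 3 samples a group such deviations are tied to each other, so these correlations cannot decide whether samples were paired. With 1 sample left out, higher genes ranged from 1 to 8 and lower genes from 2 to 6; without BMP4 replicate 2, 3 of 76 members were called (3.95%) against 18.9% of all genes, and without BMP4 replicate 1 the counts were 2 and 2. Without untreated replicate 2, 3 genes were higher. Higher transcripts, 1 as reported, were 2 with a mean of at least 5 FPKM, trimmed-mean scaling, equal sums or no variance trend, 0 with the replicate block, and 0 to 1 with a sample left out. Lower transcripts, 4 as reported, were 2 without the variance trend, 0 with the block and 0 to 3 with a sample left out. diffSplice called 1 higher and 1 lower share in place of 0.

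Some differences that did not pass as reported turned sign in other settings. With 1 sample left out, the log2 fold changes ranged from -0.103 to 0.088 for Celf2, -0.084 to 0.13 for Celf1, -0.072 to 0.0099 for Prpf8, -0.030 to 0.41 for Mbnl1, -0.051 to 0.065 for Srsf2 and -0.015 to 0.045 for Hnrnpa1. They turned for Celf2 (0.0016 with trimmed-mean scaling, 0.0297 with equal sums, 0.051, 0.046 and 0.088 without untreated replicate 2, untreated replicate 3 and BMP4 replicate 1), Celf1 (-0.084) and Mbnl1 (-0.030) without untreated replicate 1, Prpf8 (0.0062 with equal sums, 0.0099 without BMP4 replicate 3), Srsf2 (-0.023 and -0.051 without untreated and BMP4 replicate 3) and Hnrnpa1 (-0.015 and -0.012 without BMP4 replicates 1 and 3). Of the single gene and transcript values, 489 kept direction and side of the threshold, 60 no longer passed, 18 newly passed and 13 turned; the cause was not tested. Equal sums moved the median of all genes by less than 0.1 on the log2 scale, to 0.03. Depth is unknown, so what it limits cannot be given; 3 samples a group limit the precision of every value.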
